A study of Mus musculus with 24 samples.

Results

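The genes described here are 10 alpha- and beta-tubulin genes of the mouse, chosen by gene symbol as members of 1 family. The choice rule used no measured value, although the family was picked for description with earlier results of these data known. The alpha members are Tuba1a, Tuba1b, Tuba1c and Tuba4a, and the beta members are Tubb2a, Tubb2b, Tubb3, Tubb4a, Tubb4b and Tubb5. They are 10 of the 55177 genes in the annotation used. All 10 passed the low-count filter in each fit. RNA was sequenced from 24 cultures of primary cortical neurons prepared from mouse embryos at embryonic day 16.5. Per the labels' growth protocol, each embryo's cortex counted as its own biological replicate.

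All cultures were silenced overnight with 1 µM tetrodotoxin, a sodium channel blocker, and 100 µM D-AP5, an NMDA receptor blocker. Resting cultures were harvested in that state, and depolarized cultures received 50 mM KCl for 30 min. At 7 days in vitro (DIV7) the cultures were labelled wild type, carried no construct and received 0.1% DMSO in both states, with 2 libraries at rest and 2 under KCl. At DIV18 the cultures carried CRISPR guides. The non-targeting guide (NT) had 2 libraries in each state. The knockout (KO) guides against Smarcc2, which encodes a subunit of the BAF chromatin remodelling complexes, were combined with an empty vector (3 at rest, 3 under KCl), with wild-type Smarcc2 (WT; 2 and 3), with the S586E form (3 at rest) or with the S586A form (2 under KCl). The promoter and copy number of the added constructs are not given in the sources used here. Libraries were prepared from poly(A) RNA at DIV7, but from ribosomal RNA-depleted total RNA at DIV18. Culture age, RNA selection, DMSO and the presence of guides therefore change together and cannot be told apart.

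Alpha- and beta-tubulin form the heterodimer from which microtubules polymerize, and each vertebrate genome encodes several isotypes of both. The isotypes are most alike in the folded core and differ most in the acidic tail at the end of the protein, which lines the microtubule surface and is the site of glutamylation. Most alpha isotypes end in a tyrosine that is removed by vasohibins and restored by tubulin tyrosine ligase. Cells also hold tubulin mRNA in check through autoregulation, in which TTC5 recognises the first residues of nascent tubulin and triggers mRNA decay when free dimer is abundant.

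The end of the coding sequence is printed for Tuba4a and the 6 beta members because the tail is where these genes differ most. Each line gives the last 60 coding bases before the stop codon, 5′ to 3′ on the gene's own strand, from the GENCODE M21 transcripts (GRCm38). The capitals mark the glutamate codons GAA and GAG in the reading frame.
Tuba4a: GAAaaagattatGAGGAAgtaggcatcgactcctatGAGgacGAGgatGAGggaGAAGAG
Tubb2a: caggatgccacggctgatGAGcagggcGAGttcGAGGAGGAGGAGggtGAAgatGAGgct
Tubb2b: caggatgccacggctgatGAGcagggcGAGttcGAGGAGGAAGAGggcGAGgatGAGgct
Tubb3: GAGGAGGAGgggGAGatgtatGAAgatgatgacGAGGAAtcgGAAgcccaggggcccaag
Tubb4a: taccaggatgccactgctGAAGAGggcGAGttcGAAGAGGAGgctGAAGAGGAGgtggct
Tubb4b: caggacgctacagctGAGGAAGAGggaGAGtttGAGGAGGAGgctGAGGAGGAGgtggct
Tubb5: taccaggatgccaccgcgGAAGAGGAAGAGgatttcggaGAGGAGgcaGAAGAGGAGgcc

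Each of these tails of 20 codons held between 8 glutamate codons, in Tuba4a, Tubb2a, Tubb2b and Tubb3, and 10, in Tubb4b. Tuba4a ended in GAG, a glutamate codon, so that its protein is made without a terminal tyrosine. Tubb3 was the only beta member that ended in a lysine codon, AAG. The first 12 coding bases, which encode the residues read in autoregulation, are given for 1 alpha and 1 beta member, with the codons after the start codon in capitals.
Tuba4a: atgCGCGAGTGC
Tubb2a: atgCGCGAGATC

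Tuba4a had TGC, a cysteine codon, in the last of these positions, and all 6 beta members had ATC, an isoleucine codon.

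The coding sequences of the members are close enough to limit how reads can be assigned. Tuba1a and Tuba1b, neighbours on chromosome 15 at chr15:98949837-98953703 and chr15:98931425-98934565 on the minus strand, were 98.3% identical over the coding sequence. Tuba1c, nearby on the plus strand at chr15:99029891-99038110, was 97.1% identical to Tuba1a and 97.9% to Tuba1b. Tuba4a at chr1:75214228-75219865 was 84.7% to 85.3% identical to the other alpha members. Tubb2a (chr13:34074274-34078007) and Tubb2b (chr13:34126748-34130466) were 96.5% identical to each other. The remaining pairs of beta members, which include Tubb3 (chr8:123411424-123422015), Tubb4a (chr17:57080066-57087782), Tubb4b (chr2:25222160-25224702) and Tubb5 (chr17:35833921-35838306), lay between 81.4% and 84.6%.

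The share of a transcript's 31-base words that also occur in another gene shows where the authors' counting had to divide reads. It was 78.6% for Tuba1a, 86% for Tuba1b and 63.9% for Tuba1c, and 56.4% and 45.9% for Tubb2a and Tubb2b. Tubb4b shared 70.4%, mostly with its pseudogenes, and Tuba4a 34.6%, mostly with the overlapping gene Stk16. Tubb3, Tubb4a and Tubb5 shared only 3.26%, 1.87% and 4.47%, so their values depend least on the split. Values for Tuba1a, Tuba1b, Tuba1c, Tubb2a and Tubb2b are uncertain to that extent, and their sums are given where they matter. A predicted read-through gene, Gm49450, spans Tuba1a and Tuba1b. It took 7.25% to 8.69% of the Tuba1 signal in DIV7 libraries and 0.847% to 5.93% in DIV18 libraries, so the ages did not overlap.

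Library totals were 24422254 to 29995001 estimated counts at DIV7 and 14447367 to 23926652 at DIV18. The labelled cell type was checked with 10 neuronal markers, all of which were present at both ages. Their summed level was 4370 to 4976 normalised CPM (counts scaled to library size) at DIV7 and 4637 to 6498 at DIV18. The 9 astrocyte markers summed to 554 to 659 CPM at DIV7 and 855 to 2024 at DIV18, so the cultures were not neurons alone. The targeted gene, Smarcc2, lay at 237 to 283 CPM in the 4 NT libraries and at 47.1 to 64.1 in the 6 with the vector. In the 10 with an added construct it lay at 737 to 1340. At rest it measured 756 to 816 CPM with WT and 1164 to 1276 with S586E. Under KCl it measured 737 to 1089 with WT and 1303 to 1340 with S586A. Against WT, the form and the level of Smarcc2 therefore change together and cannot be told apart. In bulk RNA, fewer cells of a type and less RNA per cell cannot be told apart.

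The first comparison was of isotype composition by culture age. Each member's share was taken of the summed TPM (transcript abundance corrected for length and scaled to the library) of the 4 alpha or the 6 beta members in the same library. A share compares genes within a library and does not depend on how libraries are scaled against each other. The shares are a description without a test.

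Tuba1a, the predominant alpha isotype of young postmitotic neurons, made up 90.5% and 91.1% of alpha-tubulin TPM in the DIV7 libraries at rest and 92.1% and 91.9% under KCl. In the 20 DIV18 libraries its share was 58.1% at the lowest, 61.6% at the median and 63.1% at the highest. No DIV18 library overlapped the DIV7 values. Tuba1a was nevertheless the leading alpha gene in all 24 libraries.

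The share that Tuba1a did not hold at DIV18 was spread over the other alpha genes. Tuba1b, a broadly expressed isotype, had 7.64% and 7.54% at rest and 6.13% and 6.45% under KCl at DIV7, against a DIV18 range of 19.2% to 22.7% with a median of 20.1%. Tuba4a, the isotype encoded without the terminal tyrosine, had 1.83%, 1.33%, 1.75% and 1.65% in the same DIV7 order, and 17.0% to 19.5% at DIV18 with a median of 17.9%. Tuba1c remained a trace component, at 0.0390% to 0.0673% at DIV7 and 0.190% to 0.744% at DIV18. All 4 alpha members therefore separated the ages without overlap. Tuba1a, Tuba1b and Tuba1c together held 98.2% to 98.7% of alpha-tubulin TPM at rest at DIV7 and 80.5% to 82.6% in the NT libraries at rest at DIV18, a value that does not depend on how reads were divided among them.

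Among the beta members 1 gene that led at DIV7 held the smallest share at DIV18. Tubb2b, an isotype of the developing brain whose mutations cause cortical malformation in people, held 34.1% and 35.4% of beta-tubulin TPM at rest and 40.9% and 39.9% under KCl at DIV7. It was the most abundant beta gene in each of those libraries. At DIV18 it was the least abundant of the 6, at 2.82% to 5.07% with a median of 3.91%.

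Tubb4a, an isotype of the mature nervous system, and Tubb4b, a broadly expressed isotype also found in cilia, had larger shares at DIV18. Tubb4a held 4.79%, 4.37%, 3.94% and 3.97% in the DIV7 libraries, rest first, and 17.8% to 21.4% at DIV18 with a median of 19.7%. Tubb4b held 2.89%, 2.40%, 2.14% and 2.15% at DIV7 and 11.0% to 14.7% at DIV18 with a median of 12.5%. Neither gene's age ranges overlapped. The share of Tubb2a was 22.5% to 23.7% at DIV7 and 28.5% to 33.4% at DIV18, a smaller difference in proportion.

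Tubb3, the neuronal isotype used as a marker of neurons, and Tubb5, a broadly expressed isotype, were the members whose shares overlapped between ages. Tubb3 held 15.7% to 18.7% at DIV7 and 16.7% to 20.1% at DIV18. Tubb5 held 14.6% to 16.6% at DIV7 and 12.2% to 14.8% at DIV18. Shares of 8 of the 10 members thus did not overlap between the ages. Separation of the ages was common among all genes. In normalised CPM at rest, 8376 of 21072 genes were higher and 8833 lower in NT than in DIV7 libraries without overlap. The count alone therefore does not set the members apart. Shares also add up to a fixed total, so a lower share of Tuba1a or Tubb2b leaves a larger share for the others together. The comparison is between poly(A) and depleted total RNA as well as between ages, and which of them sets the difference cannot be told apart.

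**Figure D1:**
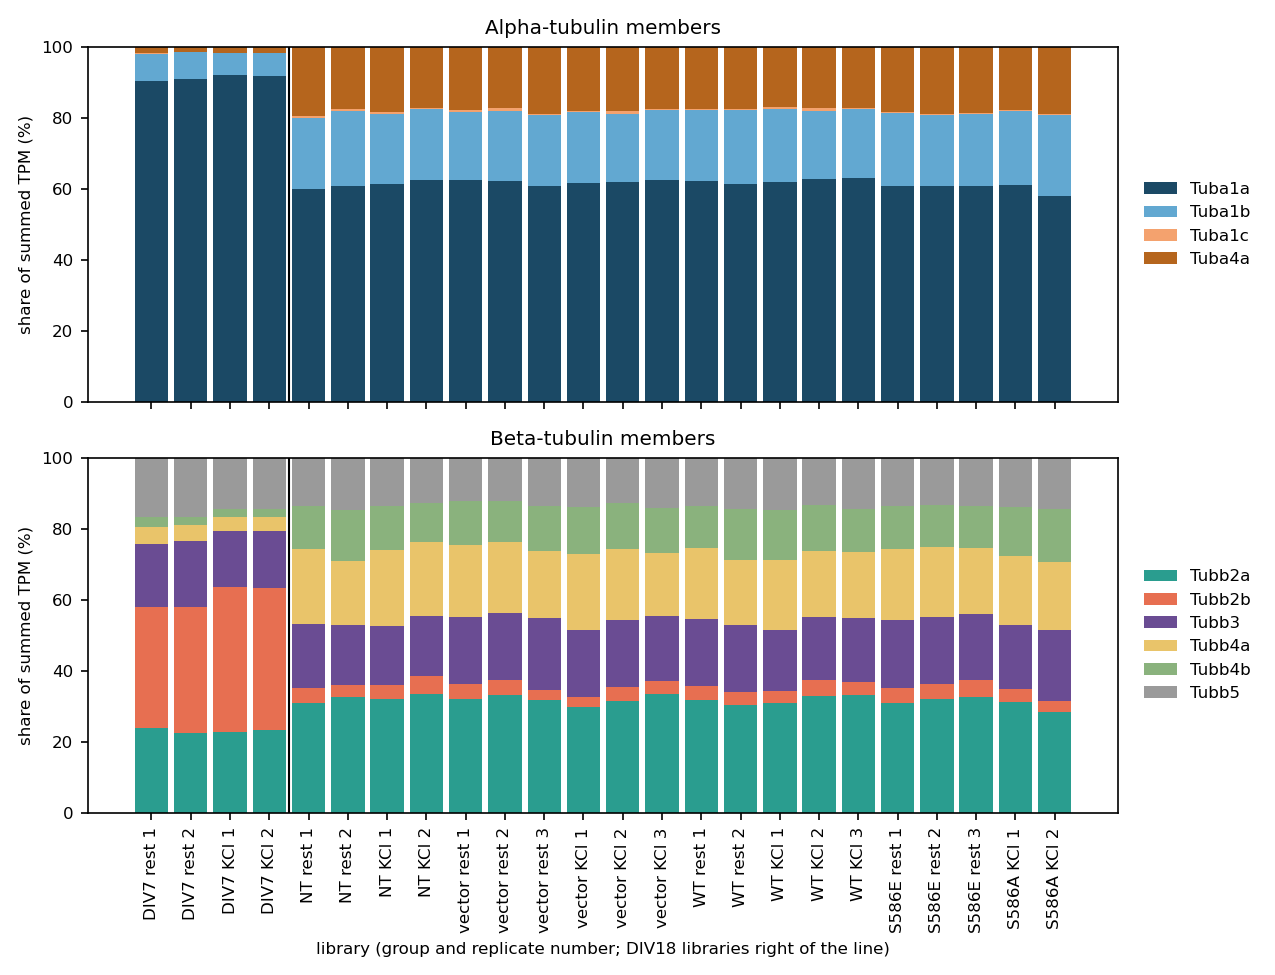
Share of summed TPM (y axis, %) held by each alpha member (upper panel) and beta member (lower panel) in each of the 24 libraries, 1 stacked bar per library, with the DIV7 libraries left of the line. Tuba1a holds 90.5% to 92.1% of each DIV7 alpha bar and 58.1% to 63.1% of each DIV18 bar, and Tubb2b shrinks from at least 34.1% of the beta bar to at most 5.07%.

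Within DIV18, the shares of 9 of the 10 members overlapped between the 4 NT and the 6 vector libraries, both states together. The exception, Tubb3, held 16.7% to 18.0% of beta-tubulin TPM in the NT libraries and 18.3% to 20.1% in the vector libraries. WT libraries lay across both, with Tubb3 at 19.0% and 19.1% at rest and 17.0% to 18.0% under KCl. The Tubb2b share was 3.95% and 5.07% in NT libraries under KCl and 2.82% to 3.88% in vector libraries under KCl, whereas the resting libraries overlapped. These genes were singled out after their values were seen. Tuba1a stayed between 58.1% and 63.1% of alpha-tubulin TPM over the 20 libraries and Tubb2a between 28.5% and 33.4% of beta-tubulin TPM. The ratio of summed alpha to summed beta TPM ran from 0.750 to 0.983. Its lowest values, 0.750 and 0.772, were in vector libraries at rest, whose replicate 3 stood at 0.860, and it overlapped between states in NT, vector and WT cultures. At DIV7 the ratio was 0.899 and 0.876 at rest and 1.03 in both KCl libraries, so the states did not overlap there.

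The same age contrast was tested gene by gene in NT cultures at DIV18 against DIV7, with edgeR's quasi-likelihood test and Benjamini-Hochberg adjustment over 21072 genes. Genes with an adjusted p below 0.05 were called. At rest 5 members were lower and 4 higher, where 60.6% of all genes tested were called (30.0% higher, 30.6% lower), so a call alone sets no member apart and the sizes carry the information. The values below are normalised CPM, which is not corrected for gene length.

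Tubb2b measured 2241 and 2377 CPM at rest at DIV7 and 96.1 and 76.4 in the NT libraries at rest. Its log2 fold change was -4.74 (SE 0.18; adjusted p = 6.117e-08), which is 26.8-fold lower. No other member differed as much. Tuba1a measured 4326 and 4328 CPM at DIV7 against 1012 and 1087 at DIV18, a log2 fold change of -2.04 (SE 0.08; adjusted p = 8.27e-08).

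Tubb5 and Tubb3, whose shares had overlapped, were both lower on this scale. Their log2 fold changes were -1.64 for Tubb5 (SE 0.06) and -1.56 for Tubb3 (SE 0.08). Tubb2a was lower by less, at -1.06 (SE 0.08), from 1107 and 1073 CPM to 515.6 and 531.9. Tubb2a thus had a larger share with a lower level, while Tubb2b, Tubb5 and Tubb3 were lower by more.

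Tuba4a measured 74.4 and 54.9 CPM at DIV7 and 289 and 261 at DIV18, a log2 fold change of 2.09 (SE 0.13; adjusted p = 1.266e-06). Tuba1c was higher by 2.07 (SE 0.26) from a level of only 2.09 and 1.77 CPM. Tubb4b was higher by 0.83 (SE 0.10) and Tubb4a by 0.58 (SE 0.09). Tuba4a, Tuba1c, Tubb4a and Tubb4b were thus higher in normalised CPM as well as in share. In TPM the direction depended on the gene. In resting libraries Tubb4a measured 285 to 307 TPM at DIV7 and 129 to 229 over all DIV18 constructs. Tubb4b measured 157 to 185 against 88.3 to 139 TPM, so both were lower. Tuba4a (75.7 to 105 against 100 to 176) and Tuba1c (2.82 to 3.87 against 1.49 to 4.91) overlapped. All members together averaged 1.22% of TPM at rest at DIV7 and 0.18% in NT libraries at rest.

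Tuba1b, whose share was also higher at DIV18, was the member that was not called at rest, at 330.4 and 329 CPM against 326 and 368 (log2 fold change 0.07, 2 standard errors either side -0.11 to 0.26, adjusted p = 0.514). Summed with Tuba1a and Tuba1c before the fit the Tuba1 genes had a log2 fold change of -1.73 (SE 0.08), and Tubb2a with Tubb2b one of -2.48 (SE 0.09). Under KCl 61.2% of genes were called (31.1% higher, 30.2% lower) and all 10 members were among them, 5 in each direction. Tuba1b was higher there by 0.29 (edgeR adjusted p = 0.0239). Its adjusted p reached 0.2499 on leaving out a library, and it was no longer called without KCl replicate 1 or 2 of DIV7 or without NT KCl replicate 2.

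**Figure D2:**
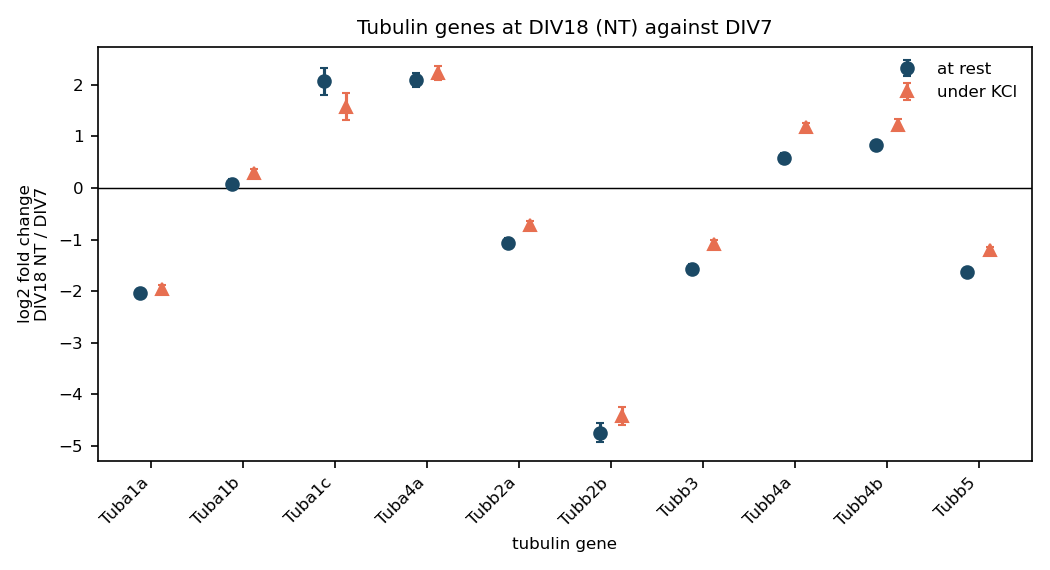
Log2 fold change of each tubulin gene in DIV18 NT cultures against DIV7 cultures (y axis), at rest (circles) and under KCl (triangles), with 1 standard error either side. Tubb2b lies lowest, at -4.74 and -4.43, and Tuba4a highest, at 2.09 and 2.24, while Tuba1b lies near 0.

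Genes that act on tubulin also differed between the ages, listed here from 4 lists on the same contrast at rest. Of all genes tested there, 30.0% were called higher and 30.6% lower, the shares to set beside each list's counts. Of 22 genes for tubulin folding and autoregulation, 16 were lower and 2 higher (median log2 fold change -0.61, against -0.03 for all genes tested). Among them Cct3 changed by -1.38 and Cct6a by -1.17 on the log2 scale. Both encode subunits of the chaperonin that folds tubulin. Tbce, a cofactor that assembles the heterodimer, changed by -1.89.

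Of 27 microtubule-associated proteins, 16 were lower and 8 higher. The lowest adjusted p values belonged to Dpysl3 (-3.96), Dcx (-4.10), the doublecortin of migrating and young neurons, and Mapt (-2.32), which encodes tau. Of the 24 modifying and severing enzymes tested, 14 were lower and 6 higher. Atat1, the alpha-tubulin acetyltransferase, changed by -3.05, Vash2, a vasohibin that removes the terminal tyrosine, by -1.82, and Ttll7, a ligase that glutamylates beta-tubulin tails, by 2.51.

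Of the other tubulin genes, 6 of 10 were tested and 4 were higher, with none lower. Tuba8 changed by 3.54, and Tubg2 and Tubg1, which encode the gamma-tubulins that nucleate microtubules, by 1.54 and 0.91. Astrocyte markers (6 of 9 higher, 1 lower), oligodendrocyte lineage markers (6 of 9 higher, 1 lower) and neuronal markers (6 of 10 higher, 2 lower) differed in the same contrast. Their part in the tubulin differences was not tested.

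The second comparison was of depolarization with KCl at DIV7. Of the 10 members 6 fell and none rose, where 17.0% of the 19822 genes tested were called and 9.67% were called lower. The members' median log2 fold change was -0.33 (-0.325), against -0.00141 for all genes. In 8 members, against 30.7% of all genes, both KCl libraries lay below both resting libraries.

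The strongest falls were in beta members. Tubb4b measured 144 and 122 CPM at rest and 84.3 and 89.4 under KCl, a log2 fold change of -0.62 (SE 0.08; edgeR adjusted p = 0.003914). Tubb5 measured 1318 and 1357 CPM at rest and 888 and 944 under KCl, a log2 fold change of -0.55 (SE 0.04; edgeR adjusted p = 0.0004924). In both genes the KCl libraries lay far below the resting range.

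Tubb3 measured 1065 and 1113 CPM at rest and 722 and 784 under KCl, a log2 fold change of -0.53 (SE 0.05; edgeR adjusted p = 0.001044). Tubb4a measured 352 and 328 CPM at rest and 229 and 244 under KCl, a log2 fold change of -0.52 (SE 0.05; edgeR adjusted p = 0.001558). The intervals of these 4 beta genes (2 standard errors either side) overlapped one another. Tubb3, Tubb4a and Tubb5 are also the members whose sequence is least shared with other genes.

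Tubb2a fell less, from 1206 and 1170 CPM to 918 and 992, a log2 fold change of -0.32 (SE 0.05; edgeR adjusted p = 0.005279). Its near-identical neighbour Tubb2b measured 2442 and 2593 CPM at rest and 2322 and 2392 under KCl. That log2 fold change was -0.10 (SE 0.04; edgeR adjusted p = 0.1378), which was not called. The sum of Tubb2a and Tubb2b fell by 0.16 on the log2 scale (-0.16, SE 0.03; edgeR adjusted p = 0.01894).

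Among the alpha members only Tuba1b was called, at 360 and 359 CPM at rest and 272 and 298 under KCl (log2 fold change -0.335, SE 0.05; edgeR adjusted p = 0.007245). Tuba1a, the most abundant member, measured 4712 and 4720 CPM at rest and 4355 and 4569 under KCl, with a log2 fold change of -0.08 (SE 0.03; edgeR adjusted p = 0.1323). The sum of Tuba1a, Tuba1b and Tuba1c had a log2 fold change of -0.10 (SE 0.03; edgeR adjusted p = 0.0826). Tuba4a, at 81.1 and 59.9 CPM at rest and 61.6 and 61.5 under KCl, overlapped between the states. Tuba1c, near 2 CPM throughout, also overlapped.

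By transcript, given as TPM without a test, the main coding transcript of Tubb5 measured 898 and 925 at rest and 580.2 and 620 (619.6) under KCl. The larger retained-intron transcript of Tubb5 measured 159 and 148 at rest and 134.7 and 135 under KCl, closer to its resting level. The retained-intron transcript of Tuba1b differed more than its coding transcript, with 33.1 and 24.9 at rest and 10.5 and 14.4 under KCl. The main transcript of Tubb3 measured 1123 and 1158 at rest and 732 and 797 under KCl. Tubb2a and Tubb4a have 1 annotated transcript each.

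All 6 calls passed each of the 9 alternatives run for this comparison. The smallest absolute log2 fold change among them was that of Tubb2a, -0.26 on leaving out a library. With the replicate number as a block, Tubb2b and Tuba1a were called as well (8 members in all). With 2 libraries a state, the deviations (r = 0.0611) do not show whether the numbers pair these cultures. Each gene has only 2 residual degrees of freedom of its own, and the quasi-likelihood test adds information on the spread pooled over genes. The biological coefficient of variation was 6.44%.

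**Figure D3:**
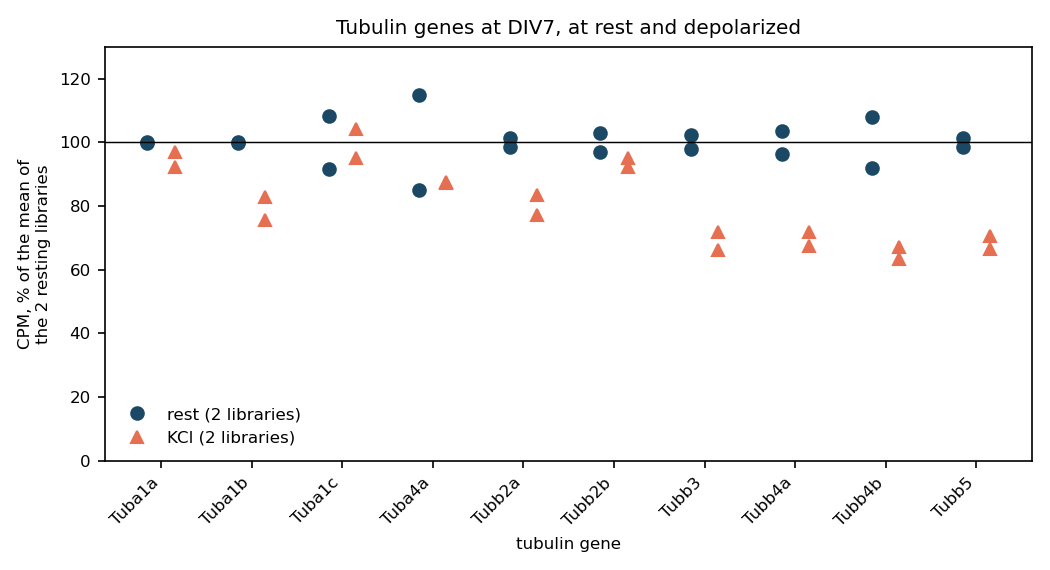
Normalised counts of each tubulin gene in the 4 DIV7 libraries as a percentage of the mean of the 2 resting libraries (y axis), with resting libraries as circles and KCl libraries as triangles. Tubb3, Tubb4a, Tubb4b and Tubb5 lie between 63.4% and 72.0% under KCl, and Tuba1a and Tubb2b between 92.2% and 96.9%.

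Some other genes of the tubulin system changed in the same DIV7 comparison. Of all 19822 genes tested, 1455 were called higher and 1916 (9.67%) lower. The counts of lower genes among the folding genes and the modifying enzymes lie near that share and do not set these lists apart. Of the 22 folding and autoregulation genes, 2 were lower and none higher. They were Tbce (log2 fold change -0.58, edgeR adjusted p = 0.002005) and Ttc5 (-0.24, adjusted p = 0.0366), the factor that recognises nascent tubulin in autoregulation. Of the 27 microtubule-associated proteins, 7 were higher and none lower, among them Map2 (0.20), Dpysl3 (0.13) and Dcx (0.14). Of 24 modifying enzymes 2 were lower, Ttll4 (-0.34) and Ttll3 (-0.49), and none of the 6 other tubulin genes tested was called.

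The summed neuronal markers were 4370 and 4458 CPM at rest and 4927 and 4976 under KCl. Among astrocyte markers Sox9 was higher and Slc1a3 and Gfap were lower. No marker of the oligodendrocyte lineage or of dividing cells was called. Of the 10 neuronal markers Map2 was called higher and none lower. The part of these differences in the tubulin result was not tested.

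At DIV18 no member was called for KCl against rest in edgeR. In NT cultures 0 of 10 were called, none had an unadjusted p under 0.05, and 0.00955% of all 20940 genes were called. Tuba1c, Tubb4b and Tubb5 were lower there without overlap, where 16.8% of all genes were. In WT cultures 0 were called and none had an unadjusted p under 0.05 (0.043% of all genes called). In vector cultures 0 were called, but 9 had an unadjusted p under 0.05, a mark that 10.3% of all genes met, where 0.0716% of genes were called. DESeq2 also called no member in these comparisons.

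In vector cultures all 10 members lay below 0, with a median log2 fold change of -0.36 (-0.355), against -0.0049 for all genes. Most members went up and down together between DIV18 libraries, as given below. Counts of members in the DIV18 comparisons are therefore not counts of independent results. Tubb3 measured 401, 306 (306.5) and 399.7 CPM at rest and 264, 266 and 299.6 under KCl, and Tubb4a 532, 397 and 457 against 362, 341 and 353. In these genes the states did not overlap (7.49% of all genes were lower without overlap), and in the other 8 they did. Resting replicate 2 lay within or near the KCl range for most members, and without it the median was -0.47. The lowest adjusted p was 0.321, for Tubb2a, in a fit that did not pair libraries by replicate number.

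Over NT, vector and WT together, all 10 members again lay below 0, with a median of -0.15. That combined test called 0 members and 0.449% of all genes, and 4 members had an unadjusted p under 0.05. The difference in response between vector and NT cultures gave a median of -0.32 (-0.315), with no member called (0.0% of genes) and 2 at an unadjusted p under 0.05. The difference between WT and vector responses was above 0 for all 10 members, with a median of 0.27, no member or gene was called, and no member had an unadjusted p under 0.05. These comparisons share the vector libraries. The responses of the constructs were not shown to differ.

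The response was also compared between ages. The DIV18 NT response minus the DIV7 response was 0.43 for Tubb5 (SE 0.09; edgeR adjusted p = 0.043), the only member called, where 2.34% of all genes were called. Tubb4a (0.60, adjusted p = 0.0518) and Tubb3 (0.47, adjusted p = 0.0737) were just outside the threshold. Tuba1a, whose response was not called at either age, stood at 0.08. The Tubb5 call passed 3 of 13 alternatives, with adjusted p values from 0.00427 to 0.282, and it was lost on leaving out any 1 library other than NT KCl replicate 1. Of the 22 folding genes Tbce was called in the same test, at 0.75 (edgeR adjusted p = 0.0409).

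The third comparison was of Smarcc2 loss, KO with vector against NT. The titles of the NT cultures name no vector or added construct. In comparisons with NT the guides and the added vector or construct therefore change together and cannot be told apart. At rest no member was called, where 5.9% of all genes were, and none had an unadjusted p under 0.05. The members' log2 fold changes ran from -0.38 for Tuba1c to 0.22 for Tubb3. All 10 members overlapped between the groups, where 16.1% of all genes were higher and 18.2% lower without overlap. With 2 standard errors either side, the log2 fold change of Tuba1a was -0.11 (-0.40 to 0.18) and that of Tubb3 0.22 (-0.08 to 0.53).

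Under KCl no member was called either, where 2.67% of all genes were, but 6 had an unadjusted p under 0.05 (16.6% of all genes). In 7 members, against 18.5% of all genes, the vector libraries all lay below the NT libraries. DESeq2 called Tubb2b, and a fit of only these groups called Tuba4a and Tubb4a.

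Tubb2b measured 76.6 and 110 (110.3) CPM in NT libraries under KCl and 46.9, 63.0 and 69.9 in vector libraries, a log2 fold change of -0.64 (SE 0.20; edgeR adjusted p = 0.1015). Tuba4a measured 231 and 263 CPM against 182, 166 and 191, a change of -0.46 (SE 0.16; edgeR adjusted p = 0.1404). Tuba1a measured 910.5 and 1039 CPM against 723, 700.5 and 806, a change of -0.39 (SE 0.14; edgeR adjusted p = 0.1627). None of these 3 overlapped, and none passed the adjustment. The members' median was -0.35 (-0.348) and lay between -0.26 and -0.43 (-0.425) on leaving out each library.

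Over both states the members' median was -0.16 (-0.158) with no member called, where 11.2% of genes were called. With the replicate number as a block Tuba1a, Tuba1b and Tuba4a were called. Same-numbered NT and vector libraries had correlations of their deviations of 0.042 and 0.13 at rest and 0.0485 and 0.0836 under KCl, and with 2 NT libraries in each state it cannot be told whether the numbers pair them.

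Markers of other cells moved with the same contrast. Over both states 7 of 9 astrocyte markers and 6 of the 9 oligodendrocyte lineage markers tested were lower, with median log2 fold changes of -1.03 and -1.67, and 4 of 10 neuronal markers were lower. Summed astrocyte markers ran from 1468 to 2024 CPM in NT libraries and from 855 to 1408 in vector libraries, and summed oligodendrocyte lineage markers from 132 to 216 and from 114 to 152. Sox10 and Bcas1 were at 0 in at least 1 DIV18 library. Their part in the tubulin values was not tested.

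Beyond the 10 members, a few genes of the tubulin system were lower in KO with vector than in NT cultures over both states. Of all 20940 genes tested, 1466 were called lower and 882 higher there. Tuba8 (log2 fold change -0.99, SE 0.17; edgeR adjusted p = 0.0009536) and Tubb6 (-0.75, SE 0.13; edgeR adjusted p = 0.001099) were the 2 of 6 other tubulin genes called. Of 27 microtubule-associated proteins 5 were lower, led by Map4 (-0.36), Dpysl3 (-0.29) and Dclk1 (-0.33). Of 24 modifying enzymes 6 were lower and 1 higher. Hdac6, which deacetylates alpha-tubulin, changed by -0.50, Vash2 by -0.73 and Ttll12 by -0.45. No folding gene was called. In WT against vector over both states, where 29 of 20940 genes were called, no gene of these lists was among them. A return of these genes with added WT Smarcc2 was therefore not shown, and the guides and the vector remain untold apart from Smarcc2 loss.

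The fourth comparison was of the added constructs. WT against vector called no member at rest (0.0143% of all genes called) or under KCl (0.00955%). The median of the members was -0.11 (-0.112) at rest and 0.22 (0.215) under KCl. Only 1 member, Tuba1a under KCl, had an unadjusted p under 0.05. Tuba1a and Tuba4a were higher without overlap under KCl, where 5.02% of all genes were. Over both states no member was called (0.138% of genes). WT against NT called no member at rest (0.105%) or under KCl (0.201%), and none had an unadjusted p under 0.05. DESeq2 called no member in these comparisons.

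S586E, in which a serine is replaced by glutamate, was measured at rest only. Its libraries also held more Smarcc2 than the resting WT libraries, without overlap, so residue and level cannot be told apart. Against WT no member was called, and no gene of 20940 was (0.0%). DESeq2 called no member either, whereas 6 members had an unadjusted p under 0.05 (12.9% of all genes). All 10 members lay above 0, with a median of 0.39 against 0.00726 for all genes. In 5 members, against 14.9% of all genes, all S586E libraries lay above both WT libraries.

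Tubb2a measured 698, 563 and 610 CPM with S586E and 552 and 384 with WT, a log2 fold change of 0.42 (0.415; SE 0.15; edgeR adjusted p = 0.2516). Tubb2b measured 125, 97.5 and 116 CPM against 88.7 and 60.4, a change of 0.59 (SE 0.21; edgeR adjusted p = 0.2387). Tubb3 measured 514, 392 and 412 CPM against 390 (390.2) and 284, and there the second S586E library barely exceeded the first WT library. S586E replicate 1 had the highest summed level of the members among the 20 libraries, 4799 CPM, and WT replicate 2 had the lowest among the resting libraries, 2791 CPM. Without WT replicate 2 the median was 0.16, without WT replicate 1 it was 0.64, and without S586E replicate 1 it was 0.26.

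Against vector, which is compared with the same S586E libraries, the 10 members also lay above 0 with a median of 0.27, no call (0.0191% of genes called) and 5 members at an unadjusted p under 0.05. All 10 overlapped between those groups, where 5.62% of all genes were higher without overlap. Without vector replicate 2 that median was 0.17. Against NT the median was 0.26 with no call in edgeR, where 2.78% of genes were called, and DESeq2 called Tubb3. In 6 members all S586E libraries lay above both NT libraries, against 15.9% of all genes. Without S586E replicate 1 the median against NT was 0.14 (0.145).

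S586A, in which alanine replaces that serine, was measured under KCl only and so cannot be set against S586E. Smarcc2 was likewise higher with S586A than with WT under KCl, without overlap. Against WT under KCl no member was called (0.0% of genes), none had an unadjusted p under 0.05, and the median was 0.16. Against vector no member was called (0.00955% of genes), 5 had an unadjusted p under 0.05 and the median was 0.32 (0.318). In 7 members both S586A libraries lay above all vector libraries, against 15.9% of all genes. Tubb4b, at 192 and 244 CPM against 153, 151 and 172, had a log2 fold change of 0.46 (SE 0.14; edgeR adjusted p = 0.2069). Tuba1b, at 272 and 353.5 against 219, 206.5 and 242, had 0.49 (SE 0.16; edgeR adjusted p = 0.2175). Without S586A replicate 2 the members' median was 0.22 (0.219), and without replicate 1 it was 0.47 (0.472). Against NT under KCl no member was called (0.43% of genes), none had an unadjusted p under 0.05 and the median was -0.03.

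**Figure D4:**
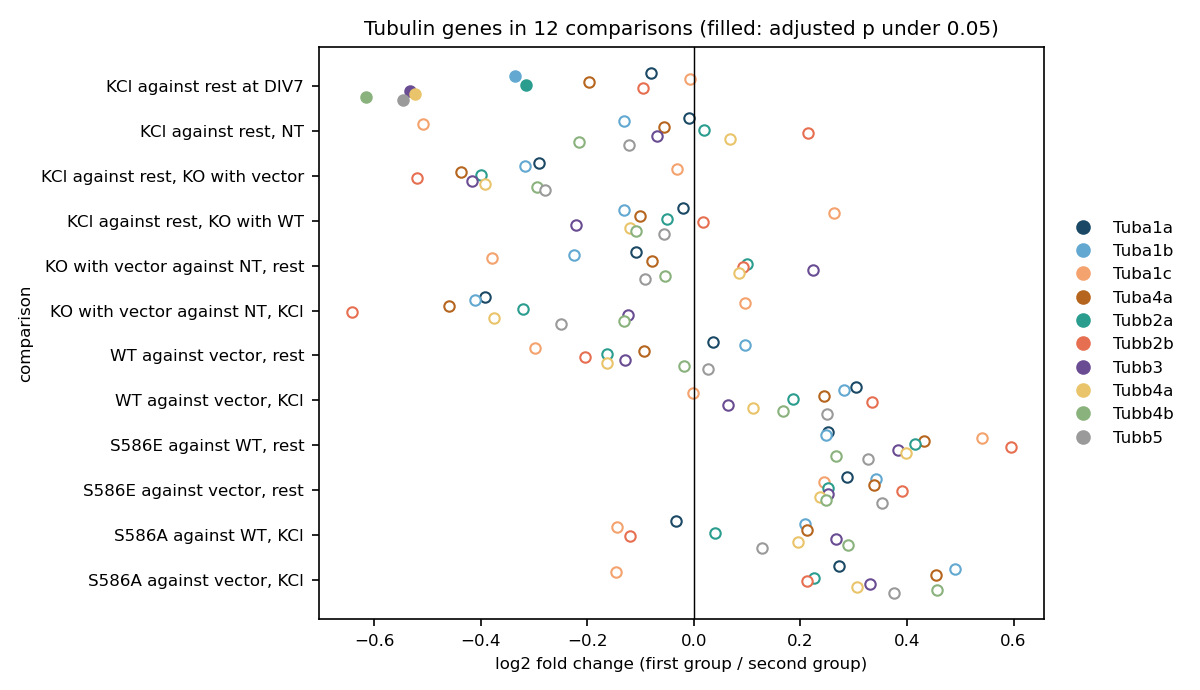
Log2 fold change (x axis) of the 10 tubulin genes, 1 colour each, in 12 comparisons (y axis), with filled points for genes called by edgeR at an adjusted p under 0.05. Only DIV7 holds filled points, 6 of them below 0, while at DIV18 the 10 genes lie on 1 side of 0 under KCl in vector cultures and for S586E against WT or vector without being called.

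At DIV18 the members went up and down together from library to library. The correlation of a member's log2 CPM with that of the summed other members, over the 20 libraries, was 0.76 for Tubb2b and 0.88 to 0.97 for 8 others, and 0.01 for Tuba1c. Genes outside the family reached similar values with the summed members, such as Actb (0.94) and Tecr (0.907), so this is not particular to tubulins. How closely genes in general follow that sum is not given here. These libraries share groups, and the summed level of the members ran from 2539 CPM in vector KCl replicate 2 to 4799 in S586E replicate 1. Within the resting vector group alone it was 3764, 2827 and 3660 CPM. The biological coefficient of variation of the DIV18 fit was 14.6%.

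**Figure D5:**
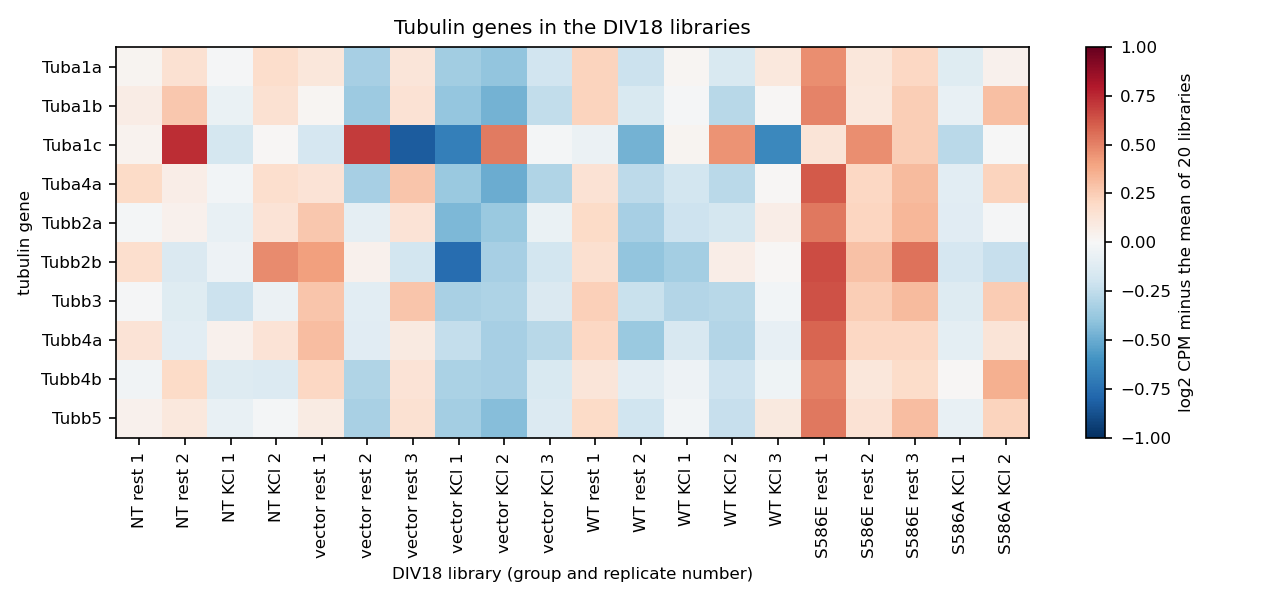
Log2 CPM of each tubulin gene (rows) in each of the 20 DIV18 libraries (columns) minus that gene's mean over the 20, red above and blue below. Except for Tuba1c the rows change colour together, with S586E replicate 1 the reddest column and the vector KCl libraries blue.

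Among the 7009 genes compared, those most like the summed members across the 20 libraries were Actb (r = 0.94), Tecr (0.907), Cfl1 (0.907), Atp6v1c1 (0.903) and Stmn2 (0.899). Actb encodes beta-actin, Cfl1 the actin-severing cofilin and Stmn2 a stathmin of neurons that binds tubulin dimers. Those most like Tubb4a were Atp6v1c1 (0.924), Hspa12a (0.912), Caprin1 (0.909), Tcf4 (0.908) and Tecr (0.907). These are Pearson correlations of log2 CPM, given as a description, and libraries of 1 group are not independent of each other.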

How the data were processed

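The authors deposited, per the file headers, estimated counts and TPM per transcript for each of 24 libraries. The submitters' processing notes name kallisto, FastQC and cutadapt. Their versions, the index and the strand setting are not given in the sources used here. Of 142552 transcripts, 99.2% matched GENCODE M21 (GRCm38). For each gene the deposited estimated counts of its transcripts were added and rounded to whole numbers. The deposited TPM, added the same way, gave the shares.

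Separate fits in edgeR 4.0.16 (R 4.3.3; TMM, filterByExpr, quasi-likelihood F test, two-sided, Benjamini-Hochberg over all genes, threshold 0.05) covered DIV7 (19822 genes tested), DIV18 in 8 groups (20940) and DIV7 with DIV18 NT (21072). They gave 24 comparisons. Scripts were tested on simulated counts. Replicates of a group differed by more than counting noise (chi-square per degree of freedom 4.91 to 29.7). Intervals are 2 standard errors.

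The family, the gene lists and the comparisons were chosen with earlier results of these data known, and the members within the family by symbol alone. The rule for named genes covered all 10 members, which are given by counts and medians where not named singly, and of each list at most the 3 called genes with the lowest adjusted p, and the 5 most alike genes with a mean of at least 20 CPM. The lists held 4 sets of tubulin-related genes and 6 of cell markers.

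The alternatives tried were DESeq2 1.42.0, median-of-ratios size factors in edgeR, no low-count filter, length offsets, a replicate block, only the groups compared and leaving out each library. Summing near-identical genes was added after the data were seen. Same-numbered libraries were taken as paired where 3 pairs each had a correlation of deviations over 0.1, which held for vector at rest and under KCl (r 0.153, 0.105 and 0.296), vector and WT under KCl (0.151, 0.166 and 0.308) and vector and S586E at rest (0.352, 0.143 and 0.344). Vector replicate 1 at rest with vector replicate 2 under KCl, of unlike numbers, reached 0.178, so the first of these pairings is less sure. The other comparisons had 2 pairs, with r from -0.0899 to 0.152, too few to tell. Standard errors, p values and calls are from fits without pairing, also for the comparisons taken as paired, unless a block is named. Coding ends of alpha members other than Tuba4a are not reported here.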

Additional observations from a re-analysis of the deposited data

Results flagged for a closer look

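The response of Tubb5 to KCl differed between DIV18 NT cultures and DIV7 cultures by 0.43 on the log2 scale (edgeR adjusted p = 0.043). Tubb5 measured 1210 and 1244 CPM at rest and 817 and 868 under KCl at DIV7, and 388 and 402 at rest and 358 and 374 under KCl in NT cultures. It was singled out because the difference itself passed the test in the joint fit of 8 libraries. The call held in 3 of 13 alternatives, and age cannot be told apart from RNA selection, DMSO and the guides.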

How the results depend on the processing

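The 6 calls at DIV7, and the 9 age calls at rest, kept their direction and their side of the threshold in all 9 alternatives run for each. Summing near-identical genes is not among these 9. For KCl at DIV7 the summed Tuba1 genes were not called (edgeR adjusted p = 0.0826), although Tuba1b alone was. The sum of Tubb2a and Tubb2b was called (edgeR adjusted p = 0.01894). Without the low-count filter more members were called at DIV18, namely 7 for KCl in vector cultures, 4 for the mean KCl response, 6 for KO with vector against NT under KCl and 4 over both states, 1 for WT against vector under KCl, 6 for S586E against WT, 5 against vector and 4 against NT, 6 for S586A against vector and 1 against NT, 1 for the vector minus NT response and 4 for the age difference in response. That setting also raised the calls among all genes, for S586E against WT from 0 to 782. The cause was not tested. DESeq2 called 1 member for KO with vector against NT under KCl, 1 over both states, 1 for S586E against NT and 3 for the age difference in response, and a fit of only the groups compared called 2 for KO with vector against NT under KCl. For the age difference in response, median-of-ratios size factors and length offsets each left 0 calls.

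With the replicate number as a block, 3 members were called for KO with vector against NT over both states and 0 for the age difference in response. In the 3 comparisons where the numbers were taken to pair the libraries, the block changed no member's call. On leaving out 1 library, KO with vector against NT over both states ranged from 0 to 1 calls (1 without vector replicate 3 at rest, Tuba1b), and the age difference in response from 0 to 2 (2 without NT KCl replicate 1). Where this left 1 library in a group, it was assumed to vary like the others.

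Shares computed from counts not divided by length moved by more than 1 SD for 7 members. The share difference between the ages at rest (NT minus DIV7) was then 0.20 percentage points for Tubb3, against -0.91 on the TPM scale, so its sign depends on length correction, and -0.75 for Tubb5, against -2.41. With coding transcripts alone that of Tubb5 was -0.73.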
